A study of Caenorhabditis elegans with 9 samples.

Results

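The C-type lectin (clec) genes of Caenorhabditis elegans were examined across 3 genotypes of first-stage (L1) larvae. Members were the genes whose single symbol in the array's platform annotation is clec- followed by a number, which gave 236 probe sets and 220 genes among 17118 genes with 1 symbol. A gene was represented by its probe set with the highest mean over all 9 arrays. The 3 groups, each of 3 Affymetrix arrays labelled as biological replicates, were wild type, a strain labelled ogt-1(ok430) and a strain labelled oga-1(ok1207). The sugar O-GlcNAc is put on proteins inside the cell by OGT-1 and taken off by OGA-1, and each mutant is labelled as a loss of its enzyme. All larvae had hatched without food, were collected after 48 h and were then given OP50 bacteria for 3 h, so the wild-type group had been starved and refed as well. RNA came from whole larvae, so less RNA per cell and fewer cells of a type cannot be told apart. The labels do not say how many strain isolates or cultures stand behind the replicates of a group, so the p-values measure the spread between these arrays.

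C-type lectins are proteins with a C-type lectin-like domain, a fold that in many members binds sugars and that in animals often serves the recognition of cell surfaces and microbes. The family is greatly expanded in C. elegans, where most members are predicted to be secreted or membrane-bound, many are expressed in the intestine, and sets of them are induced by infection in a pattern that depends on the pathogen. Part of that induction runs through the p38 MAP kinase PMK-1 and through other immune pathways. For most members no molecular function has been worked out.

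Values are deposited log2 signals, brought to 1 scale by the authors, and 22548 probe sets were tested. Differences between groups were fitted with limma over all of them, and a gene was called at a Benjamini-Hochberg adjusted p under 0.05 over all of them. The deleted genes gave a mixed check of the labels. The brightest oga-1 probe set read 9.31, 9.54 and 9.63 in wild type, and it was lower in larvae without OGA-1, at 8.63, 8.74 and 8.88. The brighter ogt-1 probe set read 10.87, 10.76 and 10.94 in wild type and 11.43, 11.43 and 11.17 in the ogt-1 mutant. It was thus not lower but higher on every ogt-1 mutant array, without a call (0.48, limma adjusted p = 0.187). A second ogt-1 probe set was called higher there (0.70, limma adjusted p = 0.0141). The position of those probes relative to the deletion was not known here, so directions for the ogt-1 mutant rest on the labels. One array of each genotype lay farthest from its group on the first 2 principal components, namely wild type 1, ogt-1 mutant 1 and oga-1 mutant 3. Without those 3 arrays the numbers of called clec genes were 3 for the ogt-1 mutant against wild type (1.36%, against 1.16% of all probe sets), 0 for the oga-1 mutant against wild type (against 0.0399%) and 2 between the mutants (0.909% against 0.834%).

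Most clec probe sets were dim in these larvae. The mean signal over all arrays lay below the lower quartile of all probe sets (5.67) for 102 of the 220 genes, between it and the median (7.45) for 76, and at or above the median for 42. Signals depend on the probe as well as on the transcript, so they were not compared between genes. Detection calls were not used, and a dim probe set may understate a difference. Of the chosen probe sets, 29 carry a suffix (such as _s_at or _x_at) that marks possible cross-hybridisation with related sequences, 13.2% against 29.8% of all tested probe sets. The number of genes at or above a signal of 7.45 ranged from 39 to 43 on the wild-type arrays, from 38 to 40 on the ogt-1 mutant arrays and from 42 to 44 on the oga-1 mutant arrays.

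The members with the 6 brightest wild-type probe sets were clec-63, clec-50, clec-174, clec-17, clec-1 and clec-265. The signal of clec-63 read 13.76, 13.81 and 13.70 in wild type, 13.56, 13.82 and 13.57 in the ogt-1 mutant, with 13.79, 13.75 and 13.71 for the oga-1 mutant. Its 3 groups overlapped, and its differences from wild type were -0.11 ± 0.09 (SE) and -0.01 ± 0.09. The differences of clec-174 (-0.18 and -0.07), clec-17 (0.36 and 0.00) and clec-265 (0.14 and 0.25) were also not called in either mutant. The other 2, clec-50 and clec-1, were called in a comparison described below. At the other end, clec-192, clec-222, clec-213 and clec-254 had wild-type means of 3.97 to 4.13, near the lowest value in the table (3.74).

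Whether loss of the O-GlcNAc transferase goes with changed clec signal was asked first, against wild type. Of the 220 genes 3 rose (clec-3, clec-73 and clec-143), 6 fell (clec-31, clec-37, clec-22, clec-8, clec-199 and clec-50) and 211 were not called. Those 9 are 4.09% of the family, against 2.59% of all probe sets called in this comparison. By direction the background was 1.19% higher and 1.4% lower. The median difference of the family was -0.02, against 0.00 over all probe sets. With the replicate number as a block, 19 clec genes were called, 4 higher and 15 lower, and they included all 9. That is 8.64% of the family, against 4.59% of all probe sets in that fit (1.93% higher and 2.66% lower). At an unadjusted p under 0.05 there were 33 genes, 6 higher and 27 lower, which is 15% against 15.8% of all probe sets.

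The largest rise was that of clec-3. It read 6.89, 7.23 and 6.71 in wild type, 8.58, 9.11 and 8.73 in the ogt-1 mutant, with 6.67, 7.42 and 6.79 for the oga-1 mutant. Every ogt-1 mutant array lay above all 6 others, while the oga-1 mutant and wild-type arrays overlapped. The difference from wild type was 1.86 ± 0.21 (SE, n = 3, limma adjusted p = 0.00353) in the ogt-1 mutant. In the oga-1 mutant it was 0.01 ± 0.21, with a 95% interval of -0.46 to 0.49. Its wild-type mean (6.95) was below the median signal of all probe sets. Its neighbour in the gene order of the RefSeq table, clec-2, differed from wild type by -0.02 in the ogt-1 mutant, at a wild-type mean of 5.29.

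The other rises were small and at dim probe sets. The signal of clec-143 read 6.88, 6.83 and 6.76 in wild type, 7.30, 7.38 and 7.35 in the ogt-1 mutant, with 6.86, 6.87 and 6.89 for the oga-1 mutant. The groups that were compared did not overlap, and the difference from wild type was 0.52 ± 0.07 (limma adjusted p = 0.00755). For clec-73 the arrays read 4.41, 4.42 and 4.21 in wild type, 5.13, 5.36 and 4.95 in the ogt-1 mutant, with 4.48, 4.45 and 4.55 for the oga-1 mutant. That is a difference of 0.80 ± 0.11 (limma adjusted p = 0.00743) at a probe set marked for cross-hybridisation whose signal stayed below the lower quartile in all 3 groups. All 3 rises were called without each array in turn. Without the 3 arrays farthest from their groups clec-3 (limma adjusted p = 0.0400) and clec-143 (0.0422) were still called, while clec-73 was not (0.0594).

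Among the 6 genes that fell, clec-31 and clec-37 had the largest differences. All 6 lay below wild type on every ogt-1 mutant array. The arrays of clec-31 read 6.80, 6.68 and 6.28 in wild type, 5.55, 5.63 and 5.50 in the ogt-1 mutant, with 6.36, 6.2 and 5.89 for the oga-1 mutant. Arrays of the ogt-1 mutant lay below all 6 others, by -1.03 ± 0.15 from wild type (limma adjusted p = 0.00969). For clec-37, the arrays read 8.86, 9.03 and 8.56 in wild type, 7.53, 8.28 and 7.60 in the ogt-1 mutant, with 8.64, 8.48 and 8.18 for the oga-1 mutant. Here ogt-1 mutant 2 lay above oga-1 mutant 3 but below every wild-type array, and the difference from wild type was -1.01 ± 0.21 (2.01-fold lower, limma adjusted p = 0.0370). The fall of clec-31 was lost without wild type 2 (adjusted p = 0.0544). That of clec-37 was lost on leaving out any 1 array except ogt-1 mutant 2 and oga-1 mutant 3 (adjusted p = 0.0506 to 0.149).

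The remaining falls were smaller. The gene clec-50 read 12.12, 12.29 and 12.11 in wild type, 11.50, 11.83 and 11.52 in the ogt-1 mutant, and 11.98 to 12.16 in the oga-1 mutant. Its difference from wild type was -0.55 ± 0.11 (1.47-fold lower, limma adjusted p = 0.0311), at a marked probe set, with no overlap between the ogt-1 mutant and either other group. The differences of clec-22 (-0.75 ± 0.14, limma adjusted p = 0.0262), clec-8 (-0.75 ± 0.15, 0.0327) and clec-199 (-0.60 ± 0.12, 0.0308) were measured at probe sets with wild-type means of 5.92 to 6.68. Each of those 3 genes also read lower on every oga-1 mutant array than on any wild-type array, by -0.35, -0.52 and -0.28, without a call. Only clec-8 among the 9 had a second probe set, unmarked, which also fell in the ogt-1 mutant (-0.50 ± 0.10, limma adjusted p = 0.0372).

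Each of those 4 calls depended on single arrays. That of clec-22 was lost without any ogt-1 mutant array (adjusted p = 0.0515 to 0.0849), and that of clec-199 on leaving out any wild-type array, ogt-1 mutant 1 or ogt-1 mutant 3 (0.0661 to 0.10). The call of clec-50 was lost on leaving out wild type 2, wild type 3, ogt-1 mutant 1, ogt-1 mutant 3 or oga-1 mutant 2 (0.0523 to 0.135). That of clec-8 was lost on leaving out any 1 array except wild type 3 and ogt-1 mutant 2 (0.0507 to 0.135). The family's count of 9 fell to 4 on leaving out either wild type 2 or ogt-1 mutant 1.

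**Figure D1:**
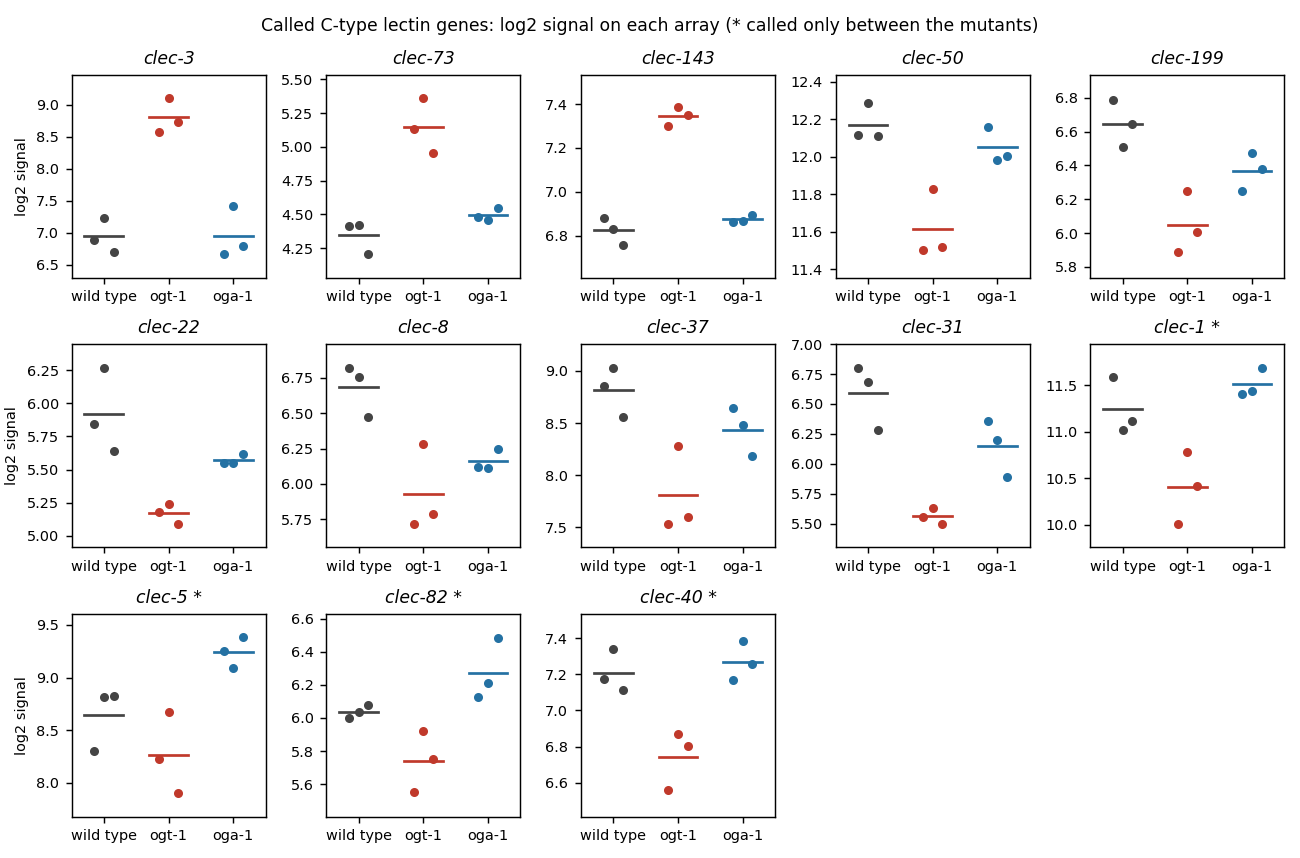
Log2 signal (vertical axes, a scale for each gene) of the 13 clec genes called in any comparison, on the 3 arrays of wild type, the ogt-1 mutant and the oga-1 mutant; points are arrays in the order of their replicate numbers and bars are group means. For clec-3 the ogt-1 mutant arrays (8.58 to 9.11) lie above all others, while for clec-31 they (5.50 to 5.63) lie below all others; genes with an asterisk were called only between the mutants.

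The 3 ogt-1 mutant arrays were not alike for this family. For all 9 called genes ogt-1 mutant 2 gave the highest signal of the 3, so that among the 6 that fell it was the array nearest to wild type. Of the 42 genes at or above the median signal, 33 (78.6%) were highest on ogt-1 mutant 2, against 32.6% of all probe sets at or above that signal. Within wild type, 26 of the 42 (61.9%) were highest on wild type 1, against 40.6%. The 42 brighter genes had a median difference from wild type of -0.20 in the ogt-1 mutant, with 31 of them (73.8%) negative, against -0.00 and 50.4% for all probe sets at or above the median signal.

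Cell type markers and quality measures were looked at in the same comparison. Of 10 intestine markers 2 fell in the ogt-1 mutant (the proton exchanger gene nhx-2 by 0.74 and the transcription factor gene elt-7 by 0.77 on the log2 scale) and 8 were not called, where 1.4% of all probe sets fell. Both calls were lost without any of 7 single arrays (limma adjusted p = 0.0577 to 0.177). None of the 10 lay below the lower quartile of signal. Between the mutants the metallothionein gene mtl-2 was higher in the ogt-1 mutant (0.57, limma adjusted p = 0.0418), a call lost on leaving out any of 6 single arrays (0.0695 to 0.118). Of all probe sets 1.32% were higher in that comparison. The mean signal of the 10 markers ran from 10.92 to 11.07 on the wild-type arrays, from 10.45 to 10.83 on the ogt-1 mutant arrays and from 10.76 to 10.96 on the oga-1 mutant arrays. The measured markers of epidermis, neurons, body wall muscle, pharynx, germline, coelomocytes, yolk and sperm held no call in any comparison. Over all probe sets 2.59% (ogt-1 mutant), 0.497% (oga-1 mutant) and 2.89% (between the mutants) were called, and these lists are short. By list, the median differences of these markers in the ogt-1 mutant ran from -0.13 (germline) to 0.10 (body wall muscle). That of the intestine markers was -0.35. The part of intestinal RNA in the clec differences was not tested. The mean gap between 3-prime and 5-prime signal of the actin, GAPDH and ubiquitin controls ran from 1.27 to 1.35 in wild type, from 1.31 to 1.51 in the ogt-1 mutant and from 1.16 to 1.28 in the oga-1 mutant. With that gap as a covariate 1 clec gene, clec-73, was called in the ogt-1 mutant (1.03, limma adjusted p = 0.0123), clec-3 had an adjusted p of 0.0523, clec-143 one of 0.0939, and those of the 6 that fell were 0.191 to 0.487. In that fit 0.217% of all probe sets were called, 0.111% for the oga-1 mutant against wild type and 0.0399% between the mutants. The intestine markers nhx-2 and elt-7 were not called in it (limma adjusted p = 0.379 and 0.561), nor was mtl-2 between the mutants (0.717).

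Many clec genes stand next to other clec genes in the genome, which allows neighbours to be set side by side. A run was taken as clec genes of 1 chromosome with at most 5 other genes between neighbours in the order of the RefSeq table (assembly WBcel235). By that rule 143 of the 220 measured genes fell into 45 runs of at least 2 measured members. The run that holds clec-22, clec-31 and clec-37 has 15 listed members, of which 11 were measured. Among the measured members clec-23 is listed in RefSeq as a pseudogene. All 11 had a negative difference in the ogt-1 mutant, from -1.03 to -0.09 with a median of -0.19, and 3 were called. In the oga-1 mutant 7 of the 11 were negative, with a median of -0.08 and none called.

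Within that run, clec-40 and clec-35 came next in size in the ogt-1 mutant. The signal of clec-40 read 7.18, 7.34 and 7.11 in wild type, 6.56, 6.87 and 6.80 in the ogt-1 mutant, with 7.17, 7.39 and 7.26 for the oga-1 mutant. Arrays of the ogt-1 mutant lay below the others, with a difference of -0.47 ± 0.11 from wild type that was not called (limma adjusted p = 0.0546) but was with the block (0.0221). For clec-35 the difference was -0.43 (adjusted p = 0.0451 with the block, not called without it). The other 6 members had differences of -0.19 to -0.09. The 10 members other than clec-37 had wild-type means below 7.45, so the members with small differences were also measured at low signal.

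Some other runs were wholly negative in the ogt-1 mutant and some were mixed. All 5 members of the run that holds clec-199 were negative, with a median of -0.07 and 1 called. So were clec-4 (-0.14) and clec-8 (-0.75), a run of 2, and the 3 measured members of the run that holds clec-82 (-0.50 to -0.19). In the run of 12 measured genes that holds clec-73, that gene rose while clec-74, which read 6.84, 6.70 and 6.45 in wild type and 7.53, 7.36 and 6.92 in the ogt-1 mutant, differed by 0.61 ± 0.15. That difference was not called (limma adjusted p = 0.0746; with the block 0.0322). In the same run clec-72 differed by -0.57, clec-67 by -0.45 and clec-76 by 0.00, and 9 of the 12 were negative. The neighbours clec-49 and clec-50, both at marked probe sets, differed by -0.62 and -0.55. In the run of clec-54 to clec-57 with clec-227, 4 of 5 were negative, with median differences of -0.48 (ogt-1 mutant) and 0.07 (oga-1 mutant), and none was called at the chosen probe sets. With the block clec-54 was called there (-0.62, limma adjusted p = 0.0130). A second, dimmer probe set of clec-57 fell in the ogt-1 mutant (-0.70 ± 0.14, limma adjusted p = 0.0313), while the chosen one differed by -0.48 ± 0.18 (0.238). In the run of 5 genes with clec-143, the other members differed by -0.25 to 0.06.

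**Figure D2:**
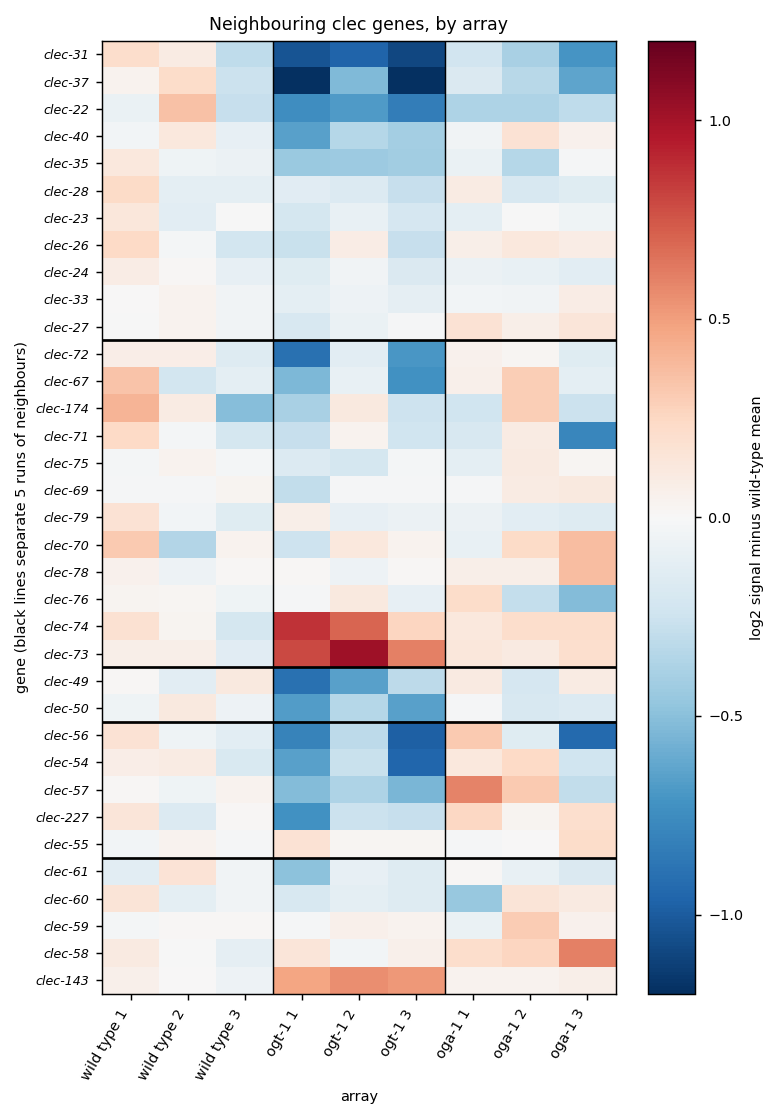
Log2 signal minus the gene's wild-type mean (colour scale, blue lower and red higher, saturating at 1.2) for the measured genes of 5 runs of neighbouring clec genes (rows, ordered by their difference in the ogt-1 mutant) on the 9 arrays (columns). In the top run all 11 genes have a negative mean difference in the ogt-1 mutant. Below it, clec-73 and clec-74 are higher there while clec-72 is lower.

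Members with published roles were described as a list of 13 genes. None was called in any of the 3 comparisons, and their median differences from wild type were -0.21 (ogt-1 mutant) and -0.06 (oga-1 mutant). Over all probe sets 2.59% (ogt-1 mutant), 0.497% (oga-1 mutant) and 2.89% (between the mutants) were called. At those shares a list of 13 genes would often hold no call. Of these clec-49, needed with clec-39 for full resistance to Serratia marcescens, read 9.30, 9.16 and 9.40 in wild type, 8.39, 8.64 and 8.97 in the ogt-1 mutant, with 9.39, 9.09 and 9.38 for the oga-1 mutant. Its ogt-1 mutant arrays lay below all others, with -0.62 ± 0.15 from wild type (limma adjusted p = 0.0628; 0.0270 with the block). For clec-39 the difference was 0.13 at a wild-type mean of 4.40, where a change could be missed.

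The genes clec-52, clec-70 and clec-71 are known as targets of the response to Staphylococcus aureus. The signal of clec-52 read 10.59, 9.47 and 9.60 in wild type, 9.01, 9.30 and 8.71 in the ogt-1 mutant, with 9.62, 9.67 and 9.53 for the oga-1 mutant. The groups of the first comparison did not overlap, but wild type 1 stood about a log2 unit above the other wild-type arrays, and the difference of -0.88 ± 0.26 was not called (limma adjusted p = 0.121). For clec-70 and clec-71 the differences were -0.03 and -0.16. The genes clec-67 and clec-85, which depend on the p38 kinase PMK-1, differed by -0.45 ± 0.19 and -0.50 ± 0.30 in the ogt-1 mutant and by 0.08 and -0.07 in the oga-1 mutant. In both the ogt-1 mutant arrays overlapped with wild type, and ogt-1 mutant 2 (8.95 and 10.89) was the highest of its group.

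For clec-41 and clec-42, studied in infection with Bacillus thuringiensis, the differences in the ogt-1 mutant were 0.19 ± 0.24 and -0.58 ± 0.27. In both genes ogt-1 mutant 2 (9.65 and 7.84) stood well above the other ogt-1 mutant arrays (8.78 and 8.68, and 6.82 and 6.89). The infection-induced genes clec-60 and clec-61 differed by -0.15 and -0.25, clec-38, which has a role in axon development, by 0.02, and clec-87 by -0.21. In the oga-1 mutant clec-38 read 5.99, 5.84 and 6.21 against 5.84, 5.69 and 5.67 in wild type, a difference of 0.28 ± 0.11 that was not called (limma adjusted p = 0.367).

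**Figure D3:**
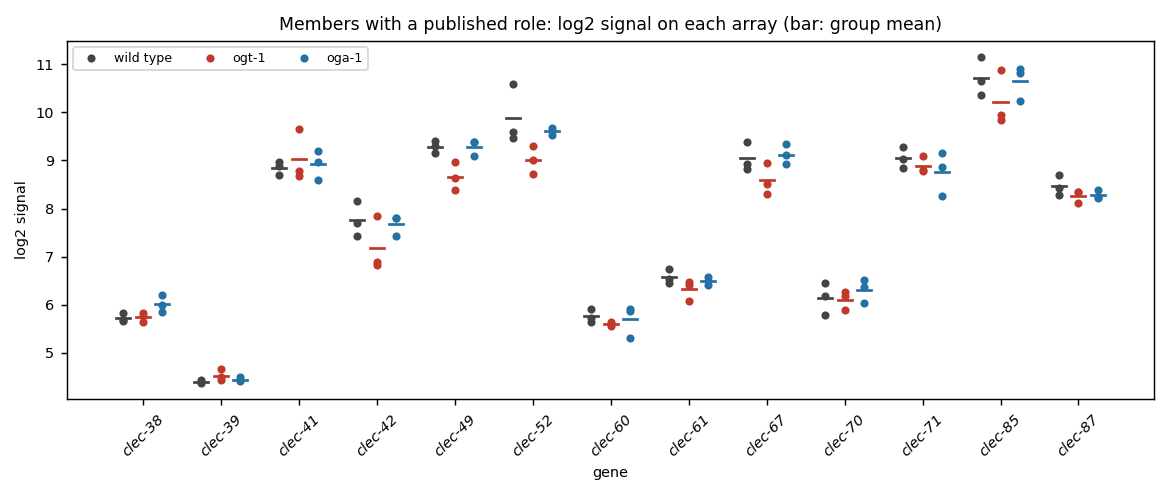
Log2 signal (vertical axis) of the 13 clec genes with a published role on the 3 arrays of each genotype (points) with group means (bars). For clec-49 the ogt-1 mutant arrays (8.39 to 8.97) lie below all others, and for clec-41, clec-42 and clec-85 1 ogt-1 mutant array lies far above the other ogt-1 mutant arrays.

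Loss of the O-GlcNAcase was examined by comparing the oga-1 mutant with wild type. None of the 220 clec genes was called by limma, against 0.497% of all probe sets (0.386% higher and 0.111% lower), and the smallest adjusted p was 0.182. At an unadjusted p under 0.05 there were 21 genes, 15 higher and 6 lower (9.55%, against 11.5% of all probe sets). The differences ran from -0.80 to 0.59, and 217 of the 220 were smaller than 0.5 in size. As the 3 wild-type arrays serve both comparisons, the 2 sets of differences share the chance values of those arrays.

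The largest differences in the oga-1 mutant were those of clec-86 and clec-5. The signal of clec-86 read 8.88, 9.79 and 9.21 in wild type, 8.38, 9.08 and 8.48 in the ogt-1 mutant, with 8.46, 8.84 and 8.18 for the oga-1 mutant. The oga-1 mutant arrays lay below all wild-type arrays, and the differences were -0.80 ± 0.26 in the oga-1 mutant (limma adjusted p = 0.281) and -0.65 ± 0.26 in the ogt-1 mutant. With the block, clec-86 was called in both mutants (adjusted p = 0.0261 and 0.0215), and in each genotype replicate 2 gave the highest value. The gene was the only clec gene called in the oga-1 mutant with the block (0.455% of the family, against 0.723% of all probe sets, 0.528% higher and 0.195% lower). The signal of clec-5 read 8.30, 8.81 and 8.83 in wild type, 8.23, 8.67 and 7.90 in the ogt-1 mutant, with 9.25, 9.09 and 9.38 for the oga-1 mutant. Its oga-1 mutant arrays lay above all 6 others, with 0.59 ± 0.20 from wild type that was not called (limma adjusted p = 0.304). The next rises in size, clec-106 (0.40 ± 0.12) and clec-197 (0.40 ± 0.17), were measured at marked probe sets and not called.

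Across the family, small positive differences prevailed in the oga-1 mutant. The difference was positive for 156 genes and negative for 64 (29.1%, against 46.5% of all probe sets), with a median of 0.06 against 0.01. In 33 genes every oga-1 mutant array lay above every wild-type array (15% against 9.41% of all probe sets), and in 7 every one lay below (3.18% against 6.66%). Dim probe sets in general shared this shift. Among all probe sets below the median signal the median difference was 0.05 and 67.5% were positive, against 0.07 and 77.5% of the 178 dim clec genes. For the 42 brighter clec genes the median was -0.06, against -0.04 for all brighter probe sets. After quantile normalization the family's median was 0.02.

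In the ogt-1 mutant the same counts were 14 genes with every array above wild type (6.36% against 9.98% of all probe sets) and 32 with every array below (14.5% against 11%).

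**Figure D4:**
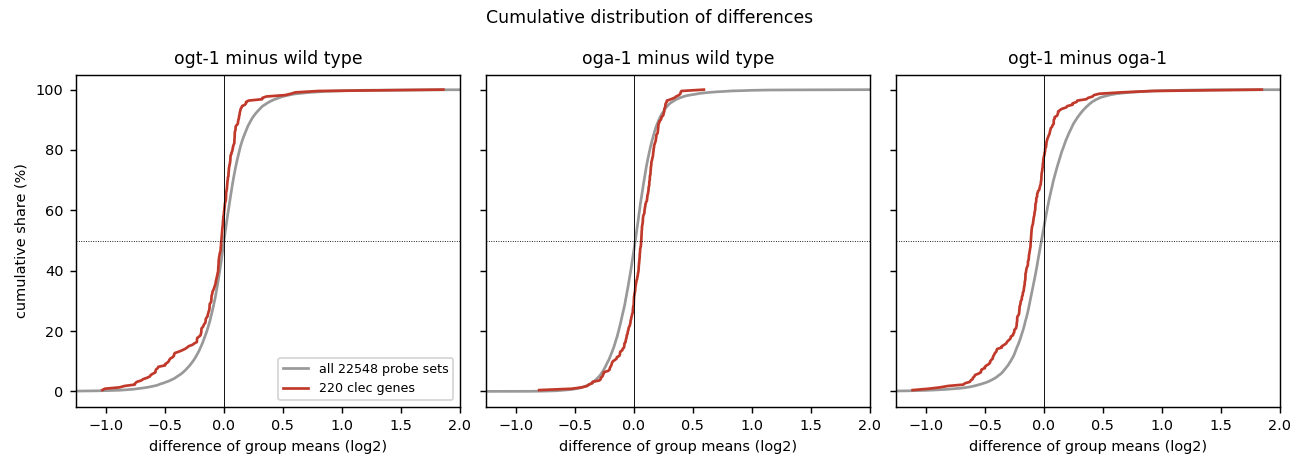
Cumulative share (vertical axis, percent) of the differences between group means (horizontal axis, log2) for the 220 clec genes and for all 22548 probe sets in the 3 comparisons. The family's median against wild type is -0.02 (ogt-1 mutant) and 0.06 (oga-1 mutant), and between the mutants -0.11, and its curve runs above that of all probe sets on the negative side in the left and right plots.

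Whether the mutants differ from each other was tested by their direct comparison, which does not use the wild-type values except for the spread. Between the mutants 7 clec genes were called, 3 higher in the ogt-1 mutant (clec-3, clec-143 and clec-73) and 4 lower (clec-1, clec-5, clec-40 and clec-82), and 213 were not. That is 3.18%, against 2.89% of all probe sets (1.32% higher and 1.57% lower). With the block 16 were called, 4 higher and 12 lower, and they included all 7. That is 7.27%, against 5% of all probe sets in that fit (2.3% higher and 2.71% lower). The 3 higher genes were those that rose against wild type. The differences between the mutants were 1.85 ± 0.21 for clec-3 (limma adjusted p = 0.00326), 0.47 ± 0.07 for clec-143 (0.0123) and 0.66 ± 0.11 for clec-73 (0.0167). The genes that fell against wild type were not called between the mutants. For clec-31 the difference was -0.59 ± 0.15 (0.0687) and for clec-37 -0.63 ± 0.21 (0.132). With the block both were called (0.0204 and 0.0495). The other 4 differed by -0.43 to -0.23.

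The largest difference with the ogt-1 mutant lower was that of clec-1. It read 11.59, 11.02 and 11.12 in wild type, 10.01, 10.78 and 10.41 in the ogt-1 mutant, with 11.41, 11.44 and 11.69 for the oga-1 mutant. Arrays of the ogt-1 mutant lay below all others, and the oga-1 mutant and wild-type arrays overlapped. Between the mutants the difference was -1.11 ± 0.20 (2.16-fold, limma adjusted p = 0.0214), and against wild type the ogt-1 mutant differed by -0.84 ± 0.20 (0.0628) and the oga-1 mutant by 0.27 ± 0.20, neither of them called. For clec-5 the difference between the mutants was -0.98 ± 0.20 (1.97-fold, 0.0349, marked probe set), where the ogt-1 mutant arrays overlapped with wild type and the oga-1 mutant arrays did not.

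Smaller calls were those of clec-40 (-0.53 ± 0.11, limma adjusted p = 0.0346) and clec-82 (-0.53 ± 0.12, 0.0455). The arrays of clec-82 read 6.0, 6.04 and 6.08 in wild type, 5.55, 5.92 and 5.75 in the ogt-1 mutant, with 6.13, 6.21 and 6.48 for the oga-1 mutant, so the 3 genotypes did not overlap, with wild type in the middle. Among genes not called, clec-9 (0.92 ± 0.22, adjusted p = 0.0590; 0.0266 with the block) and clec-139 (-0.88 ± 0.25, 0.0927) had the largest differences. Across the family the differences between the mutants leaned to the negative side, with a median of -0.11 against -0.02 for all probe sets (-0.06 after quantile normalization) and 170 genes (77.3%) negative against 54.4%. Dim probe sets in general shared part of this lean. Among all probe sets below the median signal the median was -0.05 and 35.4% were positive, against -0.11 and 21.3% of the dim clec genes. For brighter probe sets the median was 0.03 with 44.1% negative, against -0.17 and 71.4% of the brighter clec genes. In 9 genes every ogt-1 mutant array lay above every oga-1 mutant array (4.09% against 10.3% of all probe sets), and in 49 every one lay below (22.3% against 12.6%).

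The calls of clec-3 and clec-143 between the mutants held without each array in turn. Without the 3 arrays farthest from their groups clec-3 was still called (limma adjusted p = 0.0467), while clec-143 (0.0602) and clec-73 (0.0963) were not. The call of clec-73 was also lost on leaving out either ogt-1 mutant 1 or oga-1 mutant 2 (limma adjusted p = 0.0544 to 0.0570). That of clec-1 was lost on leaving out ogt-1 mutant 1, ogt-1 mutant 3, oga-1 mutant 2 or oga-1 mutant 3 (0.0591 to 0.0799). The call of clec-40 was lost on leaving out any 1 array except wild type 1, ogt-1 mutant 2 and oga-1 mutant 1 (0.0505 to 0.0967). Those of clec-5 and clec-82 were lost on leaving out any 1 array except wild type 1 and ogt-1 mutant 2 (0.0512 to 0.126). The count of 7 became 2 on leaving out either ogt-1 mutant 1 or oga-1 mutant 2. It became 4 on leaving out replicate 3 of any genotype or wild type 2, and 11 on leaving out ogt-1 mutant 2. With the control gap as a covariate, in which the mutants did not overlap, it was 0.

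Related lists were set beside the family. Of 12 galectins, another family of lectins, 2 fell in the ogt-1 mutant, where 1.4% of all probe sets fell, and none was called in the oga-1 mutant. The galectin gene lec-8, whose product competes with a bacterial toxin for host glycolipids, fell by 0.81 ± 0.17 (limma adjusted p = 0.0422), and lec-4 fell by 0.79 ± 0.13 (0.0154). Both probe sets are marked. The call of lec-4 was lost on leaving out wild type 2, wild type 3, ogt-1 mutant 1 or ogt-1 mutant 3, with 0.0549 to 0.0750. The call of lec-8 was lost on leaving out any 1 array except wild type 3 and ogt-1 mutant 2 (0.0626 to 0.160). With the control gap as a covariate neither fall was called (limma adjusted p = 0.528 for lec-8 and 0.271 for lec-4). Without the 3 arrays farthest from their groups neither was called either (0.230 and 0.0681). Between the mutants lec-4 differed by -0.75 (0.0181), a call lost on leaving out ogt-1 mutant 1, ogt-1 mutant 3 or oga-1 mutant 3 (0.0619 to 0.0714).

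Of 31 measured genes of immune signalling and transcription, among them the p38 pathway, none was called in either mutant against wild type. Their medians were 0.00 and -0.05, and over all probe sets 2.59% (ogt-1 mutant) and 0.497% (oga-1 mutant) were called. Between the mutants 2 were higher in the ogt-1 mutant and none was lower, against 1.32% and 1.57% of all probe sets. They were sta-2 (0.65, limma adjusted p = 0.0393), a STAT-like factor of the epidermal antimicrobial response, and the insulin-like receptor gene daf-2 (0.82, 0.0486). Each call was lost without any of 7 single arrays (0.0567 to 0.140), and neither was made with the control gap as a covariate. Both probe sets are marked. Of 43 other secreted immune effectors (antimicrobial peptides, lysozymes and others) 7 rose and none fell in the ogt-1 mutant, with a median of 0.12, against 1.19% of all probe sets higher and 1.4% lower. In the oga-1 mutant none was called, at a median of 0.09, against 0.497% of all probe sets called. The 7 were nlp-33, cnc-2, cnc-3, cnc-4, nlp-31, dod-24 and sysm-1. Of these nlp-33, cnc-2, cnc-3, nlp-31 and dod-24 were measured at probe sets marked for cross-hybridisation. In the oga-1 mutant all 7 also had positive differences from wild type, from 0.38 (nlp-33) to 1.06 (cnc-4), without a call. Only sysm-1 among the 7 was also called between the mutants. With the control gap as a covariate none of the 7 was called (limma adjusted p = 0.0538 to 0.503). When single arrays were left out, the call of sysm-1 (1.74, limma adjusted p = 0.0118) was lost only without ogt-1 mutant 1 (0.0527). The other 6 (0.77 to 2.09) were each lost on leaving out any of at least 4 single arrays (limma adjusted p up to 0.155). Between the mutants 3 effectors were higher in the ogt-1 mutant and none was lower, against 1.32% and 1.57% of all probe sets. Of these the lysozyme gene lys-6 (0.94, 0.00809) was called without each array in turn, while lys-4 (1.19, 0.0373) and sysm-1 (1.33, 0.0320) were each lost without at least 5 single arrays (0.0508 to 0.103). Both lysozyme probe sets are marked, and none of the 3 effectors was called with the control gap as a covariate.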

How the data were processed

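The data are 1 deposited table of log2 signals for 22625 probe sets on 9 Affymetrix arrays. MAS5, RMA and Partek appear, with no version or role, among the tools of the submitters' processing notes. No source states the base of the logarithm. It was taken as 2, since values run from 3.74 to 14.9 and array medians from 7.42 to 7.47. The authors had thus brought the deposited log2 values to 1 scale, so a shift of most genes at once would be hidden. The number of arrays limits the precision.

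The 77 control probe sets were left out and 22548 were tested with limma 3.58.1 in R 4.3.3 (lmFit, eBayes), all 9 arrays in 1 model with a coefficient per genotype, no block and no filter on low signal, so all 220 clec genes were tested. The model had 6 residual degrees of freedom plus 3.92 from moderation. Benjamini-Hochberg adjustment ran over all probe sets, with calls under 0.05. On simulated data with these means and spreads, in the ogt-1 mutant against wild type, 52% of changes of 0.5 log2 and 94% of changes of 1 were called. The simulated arrays were independent, with no shared replicate effect and no array set apart, so these shares may be too high for the real arrays. Gene symbols came from the platform annotation, and 22 probe sets with several symbols were not used to name a gene. All 220 genes matched the RefSeq table of WBcel235, which was used for names and gene order.

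The genotypes share replicate numbers. Deviations from the group means of same-numbered arrays correlated across probe sets with r of 0.10 to 0.30 (wild type and ogt-1 mutant) and 0.11 to 0.32 (the mutants), and of 0.01 to 0.21 (wild type and oga-1 mutant). Numbers were taken to pair arrays where all 3 exceeded 0.1, from the data and not from the labels, so the blocked value is given beside results it changes. Alternatives were quantile normalization, a filter on low signal, an intensity trend, array weights, a control-gap covariate, only the 2 genotypes compared, unmarked probe sets only, each array left out and 3 arrays left out. Named were genes called in any comparison, those with the 6 highest and 4 lowest wild-type means, the 3 largest differences each way in each comparison, a list of members with published roles, members of runs with a called gene, and called genes of the fixed lists; a few others (such as clec-54) were named after their values were seen. Members, lists and tests were chosen with earlier results of these data known.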

Additional observations from a re-analysis of the deposited data

How the results depend on the processing

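Counts of called clec genes depended on the model and on single arrays. For the ogt-1 mutant against wild type (9 called) the count was 19 with the replicate block, 15 with array weights, 5 with only the 2 genotypes compared, 3 without the 3 arrays farthest from their groups and, given the control gap as covariate, 1, and it ranged from 4 to 12 with 1 array left out. For the oga-1 mutant against wild type (0 called) it was 1 with the replicate block and 0 under every other alternative, including each array left out. Between the mutants (7 called) it was 16 with the replicate block, 2 without the 3 arrays and 0 with the control gap, and it ranged from 2 to 11 with 1 array left out. Quantile normalization, the filter on low signal, the intensity trend and unmarked probe sets only kept each count within 1.5 times, but not always the same genes. In the ogt-1 mutant against wild type the filter took clec-22 and clec-73 off the called genes and added clec-1 (limma adjusted p = 0.0484). Between the mutants it took off clec-73 and added clec-9, clec-49, clec-184 and clec-227. No called difference of a named clec gene changed sign under these alternatives. Why the block, the weights and the covariate move the counts was not tested. Shares of all probe sets are given above for the block, the control gap and the fit without the 3 arrays. They are not given for the other alternatives or for single arrays left out. Those counts therefore do not tell a change of the family from a change in calls over all probe sets. Dim signals are a further limit, since 178 of the 220 genes lay below the median signal and no detection calls were used.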

Other observations

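Among the 15 clec genes with more than 1 probe set, the probe sets had differences of 1 sign in 9 genes for the ogt-1 mutant against wild type, in 9 for the oga-1 mutant against wild type and in 10 between the mutants. For clec-57, both probe sets were lower in the ogt-1 mutant than in wild type (-0.70 and -0.48) and higher in the oga-1 mutant (0.13 and 0.20). Its dimmer probe set was called in the ogt-1 mutant against wild type and between the mutants (-0.83, limma adjusted p = 0.0151), and its brighter one in neither. Without the 3 arrays farthest from their groups the brighter one was called between the mutants (-0.91, limma adjusted p = 0.0405). For clec-65 the probe sets went opposite ways in the ogt-1 mutant (-0.37 and 0.09). The 22 probe sets that carry a clec symbol together with another symbol were not used for the family. Of them 3 were called in the ogt-1 mutant against wild type (1 higher), 0 in the oga-1 mutant and 3 between the mutants (2 higher).

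Some further clec genes were called with the replicate block but not in the unblocked model the report uses. In the ogt-1 mutant they included clec-210 (-0.74, limma adjusted p = 0.0175), clec-150 (-0.68, 0.0165), clec-145 (-0.56, 0.0228) and clec-201 (-0.41, 0.0383), and between the mutants clec-210 (-0.81, 0.0131), clec-257 (-0.48, 0.0453) and clec-206 (-0.36, 0.0451). In the ogt-1 mutant clec-210 was also called with array weights (0.0427) and without oga-1 mutant 1 (0.0444), and clec-150 without ogt-1 mutant 2 (0.0272). A second probe set of clec-150 differed by only -0.20 in the ogt-1 mutant. The call of clec-201, which RefSeq lists as a pseudogene, was made there with array weights, the intensity trend, quantile normalization and without oga-1 mutant 3 as well (0.0202 to 0.0476). These genes were chosen after their values were seen.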
